A study of Mus musculus with 72 samples.

Results

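Chromosome 15 carried 878 of the 17857 barcoded reporters listed for mouse embryonic stem cells, and all 878 were taken, whatever their pool, as the integrations listed on that chromosome in mm9 coordinates. They were read with TRIP, an assay in which one reporter gene is inserted at many places of the genome, each copy with its own random DNA barcode, so that the RNA of every copy can be counted apart. The cells were EBRTcH3, an embryonic stem cell line that expresses the tetracycline-controlled transactivator from its endogenous ROSA26 promoter. All reporters carried the mouse PGK promoter (mPGK) on a piggyBac transposon, and no group had another promoter or an untreated control. The design asks how the site of integration changes the output of an otherwise identical reporter.

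The 6 pools, mPGK-A to mPGK-F, held 132, 145, 131, 156, 153 and 161 of the chromosome 15 reporters, which was 4.84%, 4.57%, 5.20%, 4.93%, 4.83% and 5.18% of each pool. All of them were kept in conditioned medium with leukemia inhibitory factor, PD0325901 (a MEK inhibitor) and CHIR99021 (a GSK-3 inhibitor). They were founded by cells sorted for low eGFP soon after transfection, grown for 5 days after the sort and for 7 days as small pools, and then split into 2 cultures grown apart for 7 days, so reporters in cells outside the sort gate were not sampled. These cultures are technical replicates, and the pool is the replicate in every comparison of positions. The table counts barcodes and no genes, so the cell type could not be checked against its markers.

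An integrated reporter takes on much of the activity of the chromatin around it, which is known as a position effect. The PGK promoter drives a housekeeping gene of glycolysis and works in most cell types, which is why it serves as a sensor for such effects. The piggyBac transposon inserts at TTAA sites and is known to enter open, gene-rich chromatin more often than closed chromatin. In mouse, the centromere of chromosome 15 lies at its low-coordinate end, so positions with low coordinates are called proximal and those with high coordinates distal.

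The barcode is the only sequence in which the reporters differ, and the barcodes of the 5 highest and 5 lowest reporters are shown because they mark the ends of the range on this chromosome. Each is given with its pool, its mm9 position on chromosome 15 and its strand, from the highest level to the lowest.
mPGK-B, 36728451, minus strand: ctagaatggagaaagg
mPGK-E, 7067477, plus strand: cacatattttataagc
mPGK-D, 51822220, plus strand: ggctatctctcactta
mPGK-D, 83084787, minus strand: agccatacatttttca
mPGK-E, 89006789, minus strand: ggtcgttgattcaaaa
mPGK-E, 23040556, minus strand: aaacaagttaatattt
mPGK-C, 90577472, plus strand: gccaggaccagacaaa
mPGK-D, 49942036, plus strand: aaacccaatctgtacg
mPGK-B, 91350431, plus strand: gaatattaagggctcta
mPGK-C, 68438377, plus strand: tatacgcaatattctg

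The level of a reporter is the log2 ratio of its share of RNA reads to its share of DNA reads, with 0.5 reads added to the RNA count, averaged over both cultures, minus the pool median. A level of 0 is therefore the median reporter of that pool over all chromosomes, and each unit is a 2-fold difference. The listed barcodes summed to 3386477 to 3693449 DNA reads and 2880244 to 3508366 RNA reads per pool and culture. A chromosome 15 reporter had a median of 1614 DNA reads and 501 RNA reads over both cultures, against 1673 and 554 on the other chromosomes, and the lowest DNA count of a single culture was 34. The levels of the cultures of a pool ranked the chromosome 15 reporters with a Spearman rho of 0.904 (mPGK-B) to 0.953 (mPGK-E) across reporters. The error SD of a single culture was 0.82, and the SD between reporters was 2.42 in levels averaged over both cultures.

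Reporters of chromosome 15 covered nearly the range of all reporters and were, on average, close to those of the other chromosomes. Their levels had a median of -0.06 and ran from -4.41 at the 5th percentile to 3.29 at the 95th, a 208-fold range, against a median of 0.00 and a range from -4.42 to 3.42, or 229-fold, on the other chromosomes. The mean level over pools was -0.28 ± 0.17 on chromosome 15 and -0.18 ± 0.03 on the other chromosomes (SD, n = 6 pools). The difference was 0.07 in mPGK-A, -0.32 in mPGK-B, -0.15 in mPGK-C, -0.03 in mPGK-D, 0.10 in mPGK-E and -0.26 in mPGK-F. It thus fell below 0 in 4 of 6 pools, with a mean of -0.10 ± 0.17, and did not pass an exact two-sided sign-flip permutation test over pools (p = 0.25, adjusted p = 0.333 over the 4 such comparisons made on this chromosome). By mean level the chromosome ranked 12 of 19 autosomes, and by integrations per Mb of listed span, 8.78, it ranked 2 of 19.

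**Figure D1:**
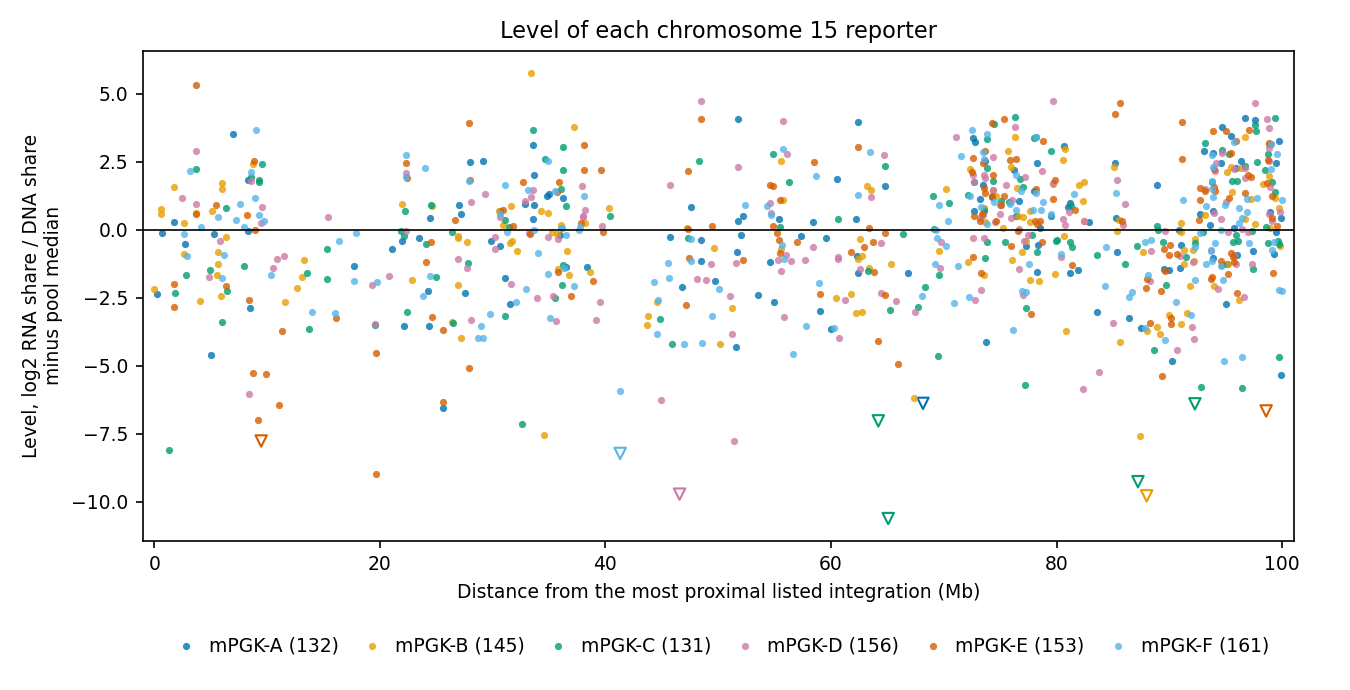
Level of each of the 878 chromosome 15 reporters (log2, 0 is the pool median) against its distance in Mb from the most proximal listed integration, coloured by pool with the number of reporters in brackets. Open triangles are the 10 reporters without an RNA read, drawn at the value the pseudocount gives. High and low reporters of all 6 pools lie side by side along most of the chromosome, most reporters 73 to 76 Mb along lie above 0, and most of those 86 to 91 Mb along lie below 0.

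Single reporters departed from their pool median in both directions. With RNA and DNA counts of a reporter compared by edgeR's quasi-likelihood test (within pools, Benjamini-Hochberg adjustment over all 17857 reporters, threshold 0.05), 317 of the 878 were higher (36.1%, against a background of 36.8% of all reporters) and 302 were lower (34.4%, against a background of 33.8%). The remaining 259 were not called, and both shares were near the background. Per pool, 43 (mPGK-B) to 63 (mPGK-E) were called higher and 42 (mPGK-A) to 60 (mPGK-F) lower. The p-values behind these calls reflect only how far cultures of one pool differed, and the calls depend in part on the scaling, since without the shift to the pool median 274 were higher and 342 lower.

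More than 16-fold above the pool median lay 16 reporters (1.82%, against 2.50% on the other chromosomes), and more than 16-fold below it lay 55 (6.26%, against 6.49%). The highest, at 36728451, had 3696 and 3570 RNA reads on 176 and 186 DNA reads and levels of 5.94 and 5.52 in the cultures, 54.5-fold above its pool median. The next, at 7067477, had 2291 and 2255 RNA reads on 156 and 171 DNA reads and lay 40.6-fold above. The other 3, at 51822220, 83084787 and 89006789, lay 26.8-fold, 26.5-fold and 25.6-fold above their pool medians. All 5 passed the edgeR test, with adjusted p between 2.0e-12 (mPGK-B) and 1.8e-06. Their DNA counts over both cultures, 327 to 1334 reads, were all under the chromosome's median of 1614, as were those of 11 of the 16 reporters over 16-fold above the median, and the part of this in their levels was not tested.

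No RNA read was counted in either culture for 10 reporters (1.14%, against 1.02% on the other chromosomes), 4 of them among the 5 lowest. These 4 had DNA counts over both cultures of 4355 (at 68438377), 2392 (at 91350431), 2738 (at 49942036) and 1716 (at 90577472), all above the chromosome's median. With a floor of 3 RNA reads over both cultures, they lay at least 526-fold, 295-fold, 282-fold and 207-fold lower than their pool medians. The fifth, at 23040556, had 2 RNA reads in one culture and 0 in the other on 3263 DNA reads, 560-fold below its pool median with an exact 95% Poisson interval of 155-fold to 4624-fold. The interval and the floor cover counting error only, since reads of the same PCR are not independent molecules. The other 6 reporters without RNA reads had 245 to 815 DNA reads and bounds of at least 27.9-fold to at least 104-fold lower, and the 10 were spread from 12851646 to 101939657 over 6 pools.

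The distal part of the chromosome held more reporters than the proximal part, and their levels averaged higher in every pool. Of the reporters, 567 lay distal and 311 proximal to the midpoint of the listed span at 53361441. Distal reporters averaged 0.12, -0.41, -0.13, 0.00, 0.36 and -0.11 in mPGK-A to mPGK-F, against -0.45, -0.56, -0.78, -0.73, -1.02 and -0.90 for proximal reporters of the same pools. The distal mean was above the proximal mean in all 6 pools, by 0.15 (mPGK-B) to 1.38 (mPGK-E), and 52.7% of distal against 40.8% of proximal reporters lay above their pool median. This split was not among the planned comparisons and was not tested.

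In steps of 10 Mb the mean level lay below 0 over the first 70 Mb and above 0 in 3 of the 4 segments beyond. The mean of all reporters of the genome also lay below 0, at -0.18. From the proximal end, the mean level per 10 Mb was -0.55, -0.96, -1.40, -0.26, -1.36, -0.40, -1.10, 0.64, 0.11 and -0.63, and it was 1.09 in the part beyond 100 Mb. The lowest share of reporters above the pool median was 24.4% between 20 and 30 Mb (11 of 45), and the highest were 70.6% between 70 and 80 Mb (84 of 119) and 73.3% beyond 100 Mb (55 of 75). Between 90 and 100 Mb integrations were most numerous, at 160, but 38.1% of them lay above the pool median, so the number of integrations and the level did not always go together at this scale.

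The landscape was tested in fixed windows of 2 Mb, with the mean level of each pool in a window as one value. Of the 51 windows with reporters on chromosome 15, 47 had reporters of at least 3 pools and could be set against the pool median (limma's moderated test, pool means weighted by their number of reporters, Benjamini-Hochberg adjustment over the 1176 windows of the genome). Higher than the pool median were 4 windows (8.51% of 47, against a background of 6.21% of all windows) and lower were 8 (17.0%, against a background of 13.0%). Both shares were somewhat above the background, a difference of few windows that was not tested. The other 35 windows did not pass in either direction.

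**Figure D2:**
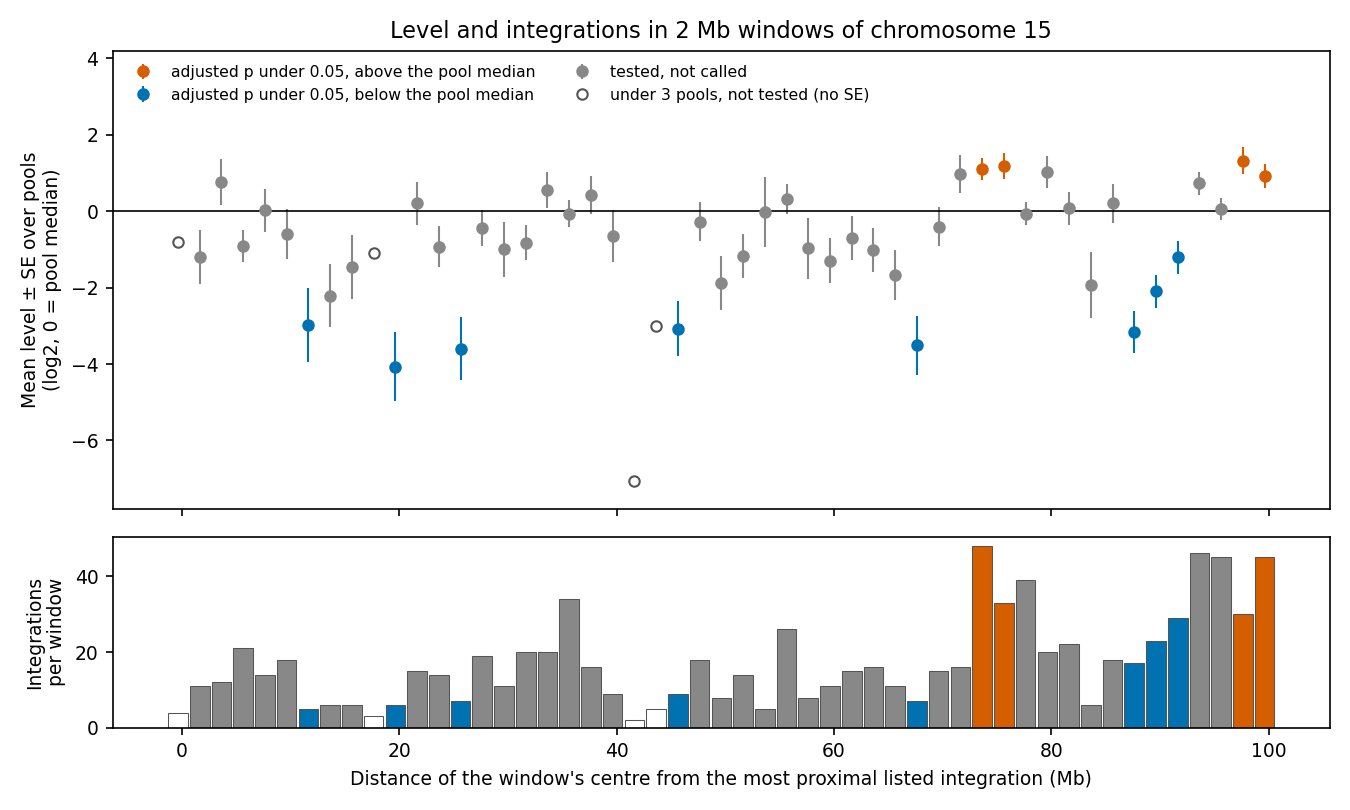
Top, mean level of each 2 Mb window of chromosome 15 over pools with its SE (log2, 0 is the pool median), against the distance of the window's centre in Mb from the most proximal listed integration. Bottom, number of integrations per window. The 4 windows above the median (orange) hold 30 to 48 integrations, the 8 below it (blue) hold 5 to 29, and open symbols are the 4 windows with fewer than 3 pools.

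The high windows formed 2 blocks in the distal part. From 76 to 78 Mb lay 48 reporters, more than in any other window, of which 40 were above their pool median. Their pool means were 0.88, 0.23, 1.53, 0.55, 1.39 and 1.85 in mPGK-A to mPGK-F, all above 0, and the window lay 1.10 ± 0.29 (SE, n = 6 pools) or 2.14-fold above the median, with an adjusted p of 0.010 in limma. Within it, single reporters still reached down to -4.14, at 77085076 in mPGK-A, on 200 DNA reads over both cultures. Next to it, the window from 78 to 80 Mb held 33 reporters, 28 of them above the median, with pool means of 1.36, 1.35, 1.44, 1.21, 1.39 and 0.01 in mPGK-A to mPGK-F. It lay 1.18 ± 0.34 above the median (adjusted p = 0.016 in limma), and 5 pools lay between 1.21 and 1.44 while mPGK-F stood at the median.

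The other block was the distal end of the listed chromosome. In the window from 100 to 102 Mb, 23 of 30 reporters lay above the median, and pool means were 2.46, 1.37, 1.65, 1.50, 0.46 and 0.62 in mPGK-A to mPGK-F. All 6 were above 0, with a window value of 1.32 ± 0.36 or 2.50-fold (adjusted p = 0.012 in limma). In the window from 102 to 104 Mb, 32 of 45 reporters lay above the median, and the pool means ran from 0.07 (mPGK-A) to 2.18 (mPGK-D), with a value of 0.93 ± 0.31 (adjusted p = 0.037 in limma). All 4 high windows lost the call with pools weighted equally (adjusted p of 0.143, 0.123, 0.081 and 0.218 in limma, from proximal to distal). Leaving out a pool ended it from 78 to 80 Mb (mPGK-B, 0.056, or mPGK-E, 0.057), from 100 to 102 Mb (mPGK-C, 0.054) and from 102 to 104 Mb (mPGK-B, 0.073, mPGK-D, 0.196, or mPGK-E, 0.10). The last window also lost it with either culture of all pools left out (adjusted p = 0.064 without replicate 1 and 0.057 without replicate 2 in limma).

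The 8 low windows lay between 1.21 and 4.06 below the median on the log2 scale, and the 4 high ones between 0.93 and 1.32 above it. Levels of single reporters on the chromosome reached further below 0, to -10.62, than above it, to 5.77. The part of this in the window values was not tested. The lowest was the window from 22 to 24 Mb, with 6 reporters of 4 pools, every one called lower in its own pool. Their levels ran from -1.92 (mPGK-F, 23082819) to -8.97 (mPGK-E, 23040556), and pool means were -3.51 in mPGK-C, -2.74 in mPGK-D, -6.74 in mPGK-E and -1.92 in mPGK-F. The window lay 4.06 ± 0.89 below the median on the log2 scale, or 16.7-fold (adjusted p = 0.0037 in limma). From 28 to 30 Mb, all 7 reporters lay below the median, with pool means of -6.55 in mPGK-A, -3.41 in mPGK-B, -1.74 in mPGK-C and -5.02 in mPGK-E and a value of -3.60 ± 0.83 (adjusted p = 0.0048 in limma). Neither window passed without mPGK-E (adjusted p = 0.074 and 0.056 in limma).

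From 70 to 72 Mb, all 7 reporters were called lower, with pool means of -3.98, -6.19, -2.47, -3.04 and -2.44 in mPGK-A, mPGK-B, mPGK-C, mPGK-D and mPGK-F. The window lay 3.51 ± 0.77 below the median or 11.4-fold (adjusted p = 0.0035 in limma). Each of the 5 pools was below -2, mPGK-E had no reporter there, and the call held in all 13 alternatives run on this window. None of these alternatives changed the grid, and those without mPGK-E and with at least 5 pools left the value at -3.51. The window from 48 to 50 Mb held 9 reporters with a value of -3.07 ± 0.72 (adjusted p = 0.0057 in limma), although one of them, in mPGK-D at 49109331, was called higher at 1.64, 1 more, in mPGK-A at 49062542, was not called, and the call was lost without mPGK-D (adjusted p = 0.080) and with equal weights (0.059). Some of the emptiest windows could not be tested. From 44 to 46 Mb the 2 reporters, both of mPGK-F, had levels of -5.92 and -8.22, and from 46 to 48 Mb the 5 reporters of mPGK-B and mPGK-F all lay between -3.83 and -1.91.

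The window from 90 to 92 Mb was the first of 3 adjacent low windows. Its 17 reporters came from all 6 pools and all lay below their pool median, 13 of them called lower. Pool means were -3.63, -5.47, -4.92, -1.32, -2.45 and -1.67 in mPGK-A to mPGK-F, all below -1, and the window lay 3.16 ± 0.56 below the median or 8.94-fold (adjusted p = 0.00055 in limma). The next window, from 92 to 94 Mb, held 23 reporters of which 21 lay below the median, with pool means from -3.51 (mPGK-B) to -0.04 (mPGK-D) and a value of -2.10 ± 0.43 (adjusted p = 0.0021 in limma). Both windows kept the call in all 13 alternatives run on them. None of these changed the grid, and that with at least 5 pools left the values unchanged. From 94 to 96 Mb the value was -1.21 ± 0.43, with 5 of 6 pools below 0 and mPGK-E at 1.51, and the adjusted p of 0.0496 in limma lay so near the threshold that 11 of 13 alternatives ended the call. The eighth low window, from 14 to 16 Mb, held 5 reporters of 3 pools, all below the median, with a value of -2.97 ± 0.97 (adjusted p = 0.035 in limma), which fell under 3 pools without mPGK-B, mPGK-D or mPGK-E. Its call was also lost with equal weights (adjusted p = 0.065 in limma) and without replicate 2 (0.073).

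Domain edges were sought as steps between adjacent windows, taken within each pool. Of the 42 pairs of windows on chromosome 15 that at least 3 pools shared, 3 (7.14%) passed limma's moderated test, against a background of 4.00% of the 1000 pairs of the genome. At 90 Mb the level was -3.16 in the distal window and 0.21 in the proximal one. The distal window was lower in all 6 pools, by -3.34, -5.10, -3.65, -1.20, -5.54 and -1.11 in mPGK-A to mPGK-F, with a weighted mean of -3.47 ± 0.78 (SE, adjusted p = 0.011 in limma). Without mPGK-B the step was -2.90 and no longer passed (adjusted p = 0.082).

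The fixed boundary lies slightly distal of where the reporters change. The last reporter above its pool median before the low stretch was barcode cagataatctgggata of mPGK-D at 89426097 (level 0.95, 916 RNA reads on 1526 DNA reads), and the next were tatgaacgcagccaca of mPGK-F at 89758201 (-2.47, 88 RNA reads on 1281 DNA reads) and tcaggagtcatattag of mPGK-A at 89772688 (-3.23, 40 RNA reads on 1075 DNA reads). On the proximal side levels were mixed rather than high throughout. Between 88 and 90 Mb, 11 of 18 reporters lay above the median, up to 4.68 and 4.26 in mPGK-E at 89006789 and 88542555, and down to -4.11 in mPGK-B at 88948542. One pool, mPGK-E, had a mean of 3.09 in that window, while the other 5 lay between -1.28 and -0.12.

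**Figure D3:**
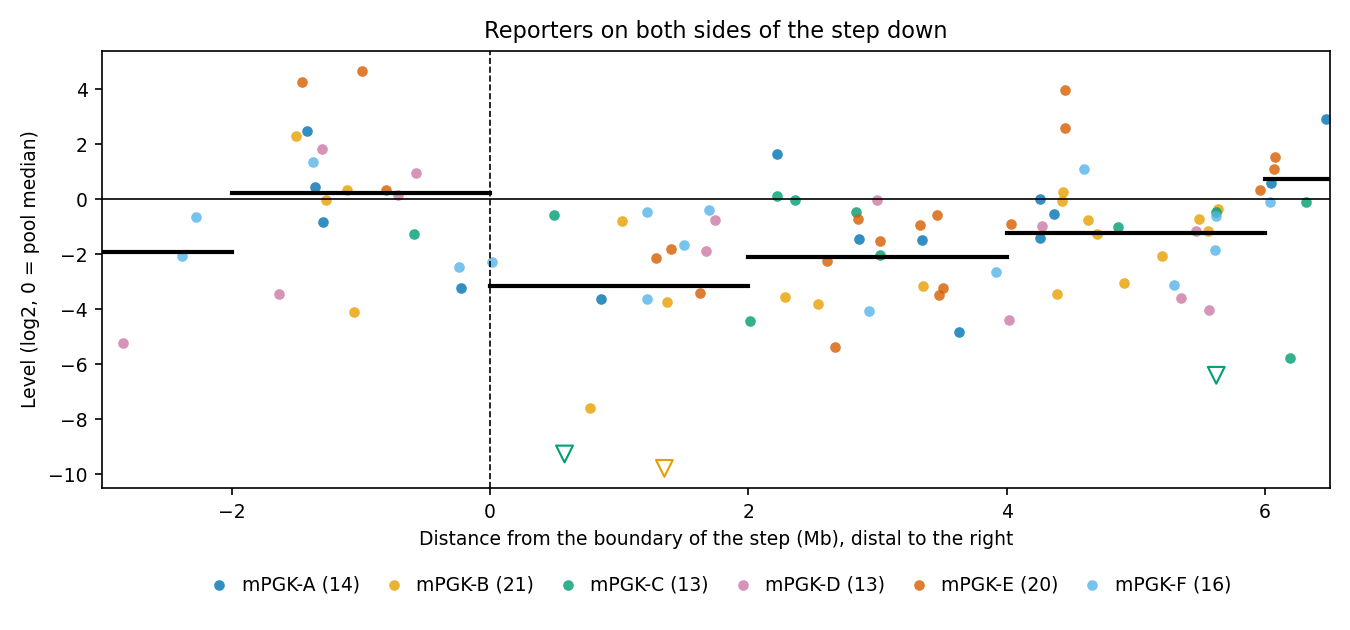
Level of each reporter (log2, 0 is the pool median) around the step at 90 Mb, against the distance from the boundary in Mb, coloured by pool with the number of reporters drawn in brackets. Black bars are the values of the 2 Mb windows, and open triangles are reporters without an RNA read. All 17 reporters in the 2 Mb distal of the boundary lie below 0, and 11 of 18 in the 2 Mb proximal of it lie above 0.

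The other 2 steps were both upward and in the proximal part. At 24 Mb the distal window had a level of 0.20 and the proximal one of -4.06, and the step was 4.76 ± 1.16 (adjusted p = 0.021 in limma), positive in all 4 pools that had reporters on both sides (2.85 in mPGK-C, 2.85 in mPGK-D, 8.91 in mPGK-E and 4.26 in mPGK-F). The nearest reporters were 1.09 Mb apart, cgaacacgacgacttt of mPGK-F at 23082819 (-1.92) and tcagcctgatatccat of mPGK-D at 24173075 (-1.71). Both were called lower at nearly the same level, so this pair showed no change across the gap between them. In the window from 24 to 26 Mb, levels above 1 began only at 25656583, where 5 of the 6 reporters up to 25799211, of mPGK-D, mPGK-E and mPGK-F, lay between 1.90 and 2.75.

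At 30 Mb the distal window had a level of -0.45 and the proximal one of -3.60, with a step of 3.94 ± 1.15 (adjusted p = 0.043 in limma), positive in 4 of 4 pools but by 0.51 in mPGK-C and by 6.96 in mPGK-A. Here agacagaatagtttta of mPGK-C at 29814989, with 70 RNA reads on 1895 DNA reads, had a level of -3.42, and tgcctgctcatactcc of mPGK-E, just across the boundary at 30013475, had 2834 RNA reads on 6463 DNA reads and a level of 0.36. Levels beyond this pair were mixed on both sides. Proximal of it lay -3.41 in mPGK-B at 29793974, called lower, and -0.08 in mPGK-C at 29751669, not called. Distal of it lay -1.07 in mPGK-D at 30261831, called lower, and -0.32 in mPGK-B at 30264091, not called. Neither upward step passed without mPGK-E (adjusted p = 0.137 and 0.194 in limma), the step at 24 Mb did not pass without mPGK-D (0.057), and that at 30 Mb did not pass without mPGK-A (0.182), mPGK-B (0.081) or mPGK-D (0.101). The step at 30 Mb also did not pass without replicate 2 of all pools (adjusted p = 0.075 in limma) or without barcodes listed in several pools (0.0501). All 3 steps were lost with equal weights. In windows of 1 Mb no step of the chromosome passed. At 24 and 30 Mb, however, fewer than 3 pools had reporters in both of those smaller windows, so neither step could be tested there.

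Neighbouring reporters often lay on the same side of the median. Of the 877 pairs of neighbours along the chromosome, 562 (64.1%) were both above or both below their pool medians, against 62.0% on the other chromosomes. There were 316 runs of same-sided reporters, 15 of which had at least 10 members, 7 above and 8 below the median, and those 15 held 215 reporters. The longest run above the median had 24 reporters of 6 pools between 77177594 and 78737861, with a mean level of 1.70 and 19 called higher. The next had 13 reporters of 5 pools within 190 kb between 102186921 and 102377008 (mean 2.24, 11 called higher), and the third had 11 reporters of 6 pools between 82080755 and 83199617 (mean 1.96, 10 called higher). No reporter of mPGK-C was in the run of 13, which had 6 of mPGK-D. Runs above or below the median were defined by level, so the direction of their means and calls was fixed by that choice. Of all reporters, 36.8% were called higher and 33.8% lower.

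The 2 runs below the median with most reporters were adjacent and made up the low stretch beyond 90 Mb. One had 20 reporters of 6 pools between 89758201 and 92015428, with a mean of -3.19 and 16 called lower. The other had 22 reporters of 6 pools between 92282454 and 94033049, with a mean of -2.31 and 16 called lower. Between them lay 2 reporters only 247 bases apart, tatagataatgtttat of mPGK-A at 92225691 (level 1.66, 2876 RNA reads on 2651 DNA reads) and tgaacctcccgtttta of mPGK-C at 92225938 (0.14, 1231 RNA reads on 3082 DNA reads). They were the only 2 reporters above the median among 44 in these 4.28 Mb, and the first was called higher.

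These bounds were set by runs below the median, so the levels inside them describe the stretch and support nothing further. The 44 reporters averaged -2.16 in mPGK-A (6), -4.63 in mPGK-B (7), -2.38 in mPGK-C (7), -1.77 in mPGK-D (4), -2.19 in mPGK-E (12) and -2.19 in mPGK-F (8). Of them 32 (72.7%, against a background of 33.8% of all reporters) were called lower and 8 lay more than 16-fold below the median, which the choice of bounds favours. There were 22 on each strand. Their median counts were 1905 DNA reads, against 1614 on the whole chromosome, and 104 RNA reads. The part of depth in their levels was not tested. Of the 44, 5 had no neighbour within 100 kb, and the median was 2 neighbours, against 3 on the whole chromosome. The runs were picked for their number of reporters, so this choice favours a stretch that is not empty.

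Next in length were 2 runs of 16 reporters each. One, of 5 pools, lay between 13306401 and 18679542 in a sparse stretch of 5.37 Mb (mean -2.44, 13 called lower), and the other, of 4 pools, lay in 1.00 Mb between 94632001 and 95635273 (mean -1.98, 12 called lower), where 7 of the 16 came from mPGK-B. Just proximal of the last run, 2 reporters of mPGK-E lay 674 bases apart on the plus strand and far above their surroundings. They were cataagactcccgttt at 94450954 (level 3.98, 1395 RNA reads on 258 DNA reads) and cacactgaacataacc at 94451628 (2.61, 1268 RNA reads on 608 DNA reads). Their nearest neighbours of another pool, both of mPGK-B at 94429091 and 94434345, had levels of -0.08 and 0.26.

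Gaps without a listed integration were shorter and rarer than elsewhere. The median distance between neighbouring integrations was 50.6 kb on chromosome 15 and 66.0 kb on the other chromosomes, and 33 of 877 distances (3.76%) reached 500 kb, against 5.81% elsewhere. Together these 33 gaps took 26.7 Mb, or 26.7% of the listed span, against 36.1% on the other chromosomes. They were unevenly placed, with 21 proximal and 12 distal to the midpoint. The longest ran from 44690429 to 47019013, 2.33 Mb, while the longest on the other chromosomes measured 11.6 Mb. The other chromosomes include Y and the sparsely hit X, with 2.18 integrations per Mb of listed span against 8.78 on chromosome 15. The differences in gaps were not tested.

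The longest gap was lined by low reporters. On its distal side stood a reporter of mPGK-B with a level of -3.50 (78 RNA reads on 2281 DNA reads), and on its proximal side one of mPGK-F with -5.92. The next gaps in length were 21298945 to 22653854 (1.35 Mb, distal and proximal levels -2.01 and -0.12), 17330254 to 18667562 (1.34 Mb, -1.81 and -3.04), 19792751 to 21099286 (1.31 Mb, -1.32 and -0.43) and 55702712 to 56906523 (1.20 Mb, -2.40 and 0.92). Of the 10 reporters at the edges of these 5 gaps, 9 lay below their pool median. The exception was the mPGK-F reporter at 55702712.

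Over the 33 gaps, 65 reporters stood at an edge and were compared with the other 813. Gap edge reporters averaged -0.09, -1.80, -1.48, -2.45, -3.12 and -1.67 in mPGK-A to mPGK-F, against -0.08, -0.38, -0.24, -0.03, -0.01 and -0.28 for the other reporters of these pools. The edges were lower in 5 pools by more than 1 unit, most in mPGK-E (-3.10), which had only 4 edge reporters. In mPGK-A, with 9 edge reporters, the means nearly coincided. The mean difference was -1.60 ± 1.06 (SD, n = 6 pools, 3.02-fold lower), negative in 6 of 6 pools, with an exact two-sided sign-flip permutation p of 0.03125. This is the smallest p that 6 pools allow, and the adjusted p of 0.0625 over 4 comparisons missed the threshold of 0.05. The same difference was -1.43 ± 0.10 on the other chromosomes, and chromosome 15 did not differ from it detectably (-0.16 ± 1.02, exact permutation p = 0.812, adjusted p = 0.812 over the 2 differences tested).

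Local density ran parallel to the level. Counting the other integrations of any pool within 100 kb, 455 reporters (51.8%, against 40.2% on the other chromosomes) had at least 3 neighbours and 126 (14.4%, against 18.4%) had none. Reporters in dense places averaged 0.68, 0.23, 0.39, 0.77, 0.70 and 0.37 in mPGK-A to mPGK-F, against -1.39, -1.31, -2.29, -2.02, -2.19 and -1.05 for isolated ones. The lowest mean of a pool in dense places was thus above the highest mean of a pool among isolated reporters. The difference was 2.23 ± 0.65 (SD, n = 6 pools) or 4.69-fold, positive in 6 of 6 pools, with an exact two-sided sign-flip permutation p of 0.03125, again the smallest possible, and an adjusted p of 0.0625 over 4 comparisons, which missed 0.05.

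**Figure D4:**
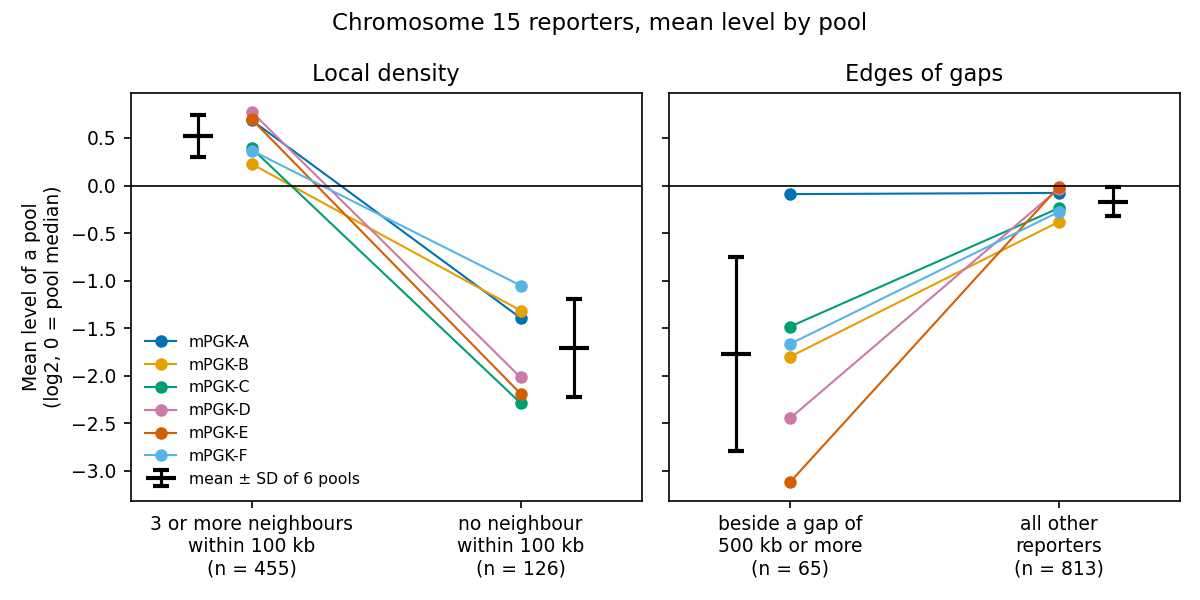
Mean level of each pool (log2, 0 is the pool median) for chromosome 15 reporters with at least 3 against those with no neighbour within 100 kb (left), and for reporters beside a gap of at least 500 kb against all others (right). Lines join the means of a pool, and black bars are the mean ± SD of the 6 pools. Every pool has its higher mean among dense reporters on the left, and on the right 5 pools are lower at gap edges by more than 1 while the means of mPGK-A are -0.09 and -0.08.

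The mean level was higher in each denser class of reporters. Mean levels were -1.62 for 126 reporters with no neighbour, -0.96 for 297 with 1 to 2, 0.37 for 321 with 3 to 5 and 0.95 for 134 with 6 or more. The share called higher was 17.5%, 22.2%, 46.1% and 60.4% in this order, and the share called lower was 56.3%, 45.5%, 24.0% and 14.2%. On the other chromosomes the mean levels were -1.36, -0.43, 0.45 and 1.24, the shares called higher were 17.8%, 31.7%, 47.8% and 62.2%, and the shares called lower were 53.3%, 37.2%, 23.6% and 13.2%. The contrast of dense and isolated reporters was 1.97 ± 0.17 there and did not differ detectably from that on chromosome 15 (difference 0.26 ± 0.53, chromosome 15 larger in 4 of 6 pools, exact permutation p = 0.312, adjusted p = 0.625 over 2).

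**Figure D5:**
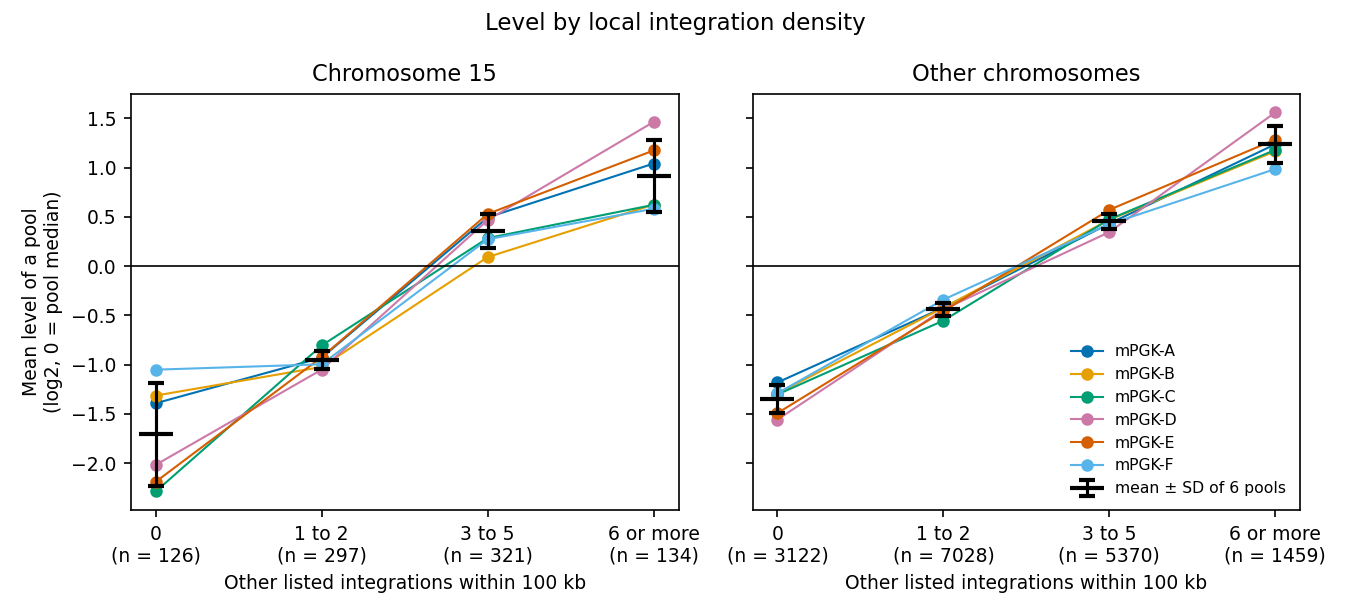
Mean level of each pool (log2, 0 is the pool median) by the number of other listed integrations within 100 kb, on chromosome 15 (left) and on all other chromosomes (right), with the number of reporters under each class. Black bars are the mean ± SD of the 6 pools. On chromosome 15 the pool means lie below -1 without a neighbour and above 0 with 3 or more.

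The part of read depth in the density and gap edge contrasts was not tested. The median DNA count was 1500 for dense and 1636 for isolated reporters, while the median RNA count was 919 for dense and 176 for isolated ones. At gap edges the medians were 1657 DNA and 202 RNA reads, against 1607 and 596 for the other reporters. Gap edges and isolation overlapped, since 38 of 65 edge reporters (58.5%) and 88 of 813 others (10.8%) had no neighbour within 100 kb, so they are not independent results. Across reporters, the Spearman rho between level and neighbours was 0.40 on chromosome 15 and 0.34 elsewhere, and across the 51 windows the rho between mean level and number of reporters was 0.66. Neighbours share their surroundings, so these correlations are descriptions.

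Dense places were not uniformly high. The reporter with most neighbours, 14 within 100 kb, was one of mPGK-C at 76993485 with a level of -1.05. Among the reporters with 6 or more neighbours, 69.4% lay above the median and 3 of 134 lay more than 16-fold below it. One of these, taaaataaacttctat of mPGK-C at 95622921, had 6 neighbours and no RNA read on 274 DNA reads and lay at least 33.1-fold lower than the median of mPGK-C. In the high window from 102 to 104 Mb, taaatcgccatcatcc of mPGK-A at 103241023 had a level of -5.34 with 5 RNA reads on 392 DNA reads.

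Close reporters of different pools resembled each other more than distant ones, within limits. The correlation of levels over pairs was 0.40 for 166 pairs within 10 kb, 0.22 for 992 pairs at 10 to 100 kb, 0.13 for 7914 pairs at 100 kb to 1 Mb and 0.01 for 58065 pairs at 1 to 10 Mb. Pairs within 10 kb lay on the same side of the median in 68.7% of cases, and still had a median difference of 1.40, or over 2-fold. A reporter can enter several pairs, and all pairs share the same chromosome, so the classes are described without a test.

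The 3 closest pairs of different pools had listed positions 1 base apart and lay on opposite strands, each time with the minus strand at the lower position. Whether the reporters of a pair sit at the same site was not resolved. Their barcodes are shown because they mark adjacent listed positions read in different pools and orientations.
mPGK-F, 9381849, minus strand: agctgtaatgtcacgc
mPGK-C, 9381850, plus strand: tttaaaaacaacttta
mPGK-B, 76911603, minus strand: tcattgcttaatccaa
mPGK-D, 76911604, plus strand: ttgtcttcgcatacat
mPGK-A, 80628918, minus strand: gggataatacgactcc
mPGK-C, 80628919, plus strand: ttcctaaatatacggt

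At the first site the mPGK-F reporter had 58 and 69 RNA reads on 420 and 755 DNA reads (level -1.75). The mPGK-C reporter had 26 and 17 RNA reads on 674 and 564 DNA reads (level -3.38). Both were called lower, and they differed by 1.62. At the second the levels were 0.82 in mPGK-B, called higher, and -0.28 in mPGK-D, not called, a difference of 1.10 inside the densest window. At the third they were -0.60 in mPGK-A, not called, and -2.86 in mPGK-C, called lower, a difference of 2.27. The error SD of 0.82 is that of a single culture, while these levels average both cultures, and whether the differences exceeded error was not tested. At the second site the levels by culture were 1.09 and 0.47 in mPGK-B, against -0.83 and 0.19 in mPGK-D. Pool, strand and barcode changed together in all 3 pairs, so they cannot be told apart.

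Orientation along the chromosome made no detectable difference. The 449 reporters on the plus strand averaged -0.33 ± 0.24 and the 429 on the minus strand -0.22 ± 0.22 (SD, n = 6 pools). The difference was -0.11 ± 0.31, negative in 4 of 6 pools, with an exact two-sided sign-flip permutation p of 0.469 (adjusted p = 0.469 over 4). It was largest in mPGK-D, at -0.66, and positive in mPGK-E (0.20) and mPGK-F (0.14).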

How the data were processed

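The 72 libraries (RNA, DNA and mapping libraries of 6 pools, 2 cultures and 2 PCRs each) were deposited by the authors as a table of integrations with raw DNA and RNA read counts per barcode and culture, with no normalization in the file. Bowtie2 2.0 and mm9 are named in the submitters' processing notes. The sources used here do not give how PCRs were combined, which barcodes were kept or the base from which positions count, so each position is uncertain by 1. No mm9 genome or annotation was used, so genes at these positions are not described. Coordinates are mm9 as listed, and windows count from 1. Totals are sums over listed barcodes, so levels are relative to these.

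Levels were computed as in the text (pseudocount 0.5, each culture on its own median for values by culture). Neighbours were counted within 100 kb over all pools, and gaps were distances of at least 500 kb. Values for the other chromosomes include X and Y. RNA and DNA counts were compared per pool with edgeR 4.0.16 (filterByExpr, which removed 0 barcodes, TMM, then shifted to the pool median, as medians lay at -0.27 to -0.23). Windows and steps were fitted with limma 3.58.1 over the genome, and contrasts were tested by sign flips over pools. Adjustment followed Benjamini and Hochberg, threshold 0.05. R 4.3.3, Python 3.11.15 and scipy 1.17.1 were used, and the window and count tests were tested on simulated data. Per the labels, same-numbered RNA and DNA come from the same culture. Their deviations correlated by -0.0017 to 0.056 across barcodes.

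Members, regions and tests were chosen with earlier results of these data known. Named were the 5 highest and 5 lowest reporters, windows past the threshold (the 5 lowest, with the other 3 low windows added), steps past it, the 5 longest gaps, the 3 longest runs each way (with a tie), the densest window and the 3 closest pairs. Single reporters inside windows and at steps were picked after their values were seen. Alternatives are listed in the closing section. 62 of the chromosome's barcodes are also listed in another pool, always at another position.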

Additional observations from a re-analysis of the deposited data

Results flagged for a closer look

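In the window from 78 to 80 Mb, the mean of pool mPGK-F, 0.00682, stood apart from the other 5 pools, whose means lay between 1.21 and 1.44. Its gap to the nearest pool took 0.84 of the whole range, above Dixon's critical value. It rested on 4 reporters, one of which, atgtttcactccctta at 79480559, had a level of -3.68 (118 RNA reads on 3970 DNA reads) and was called lower. Of the 20 groups of pools checked this way, chance would be expected to mark about 1.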

How the results depend on the processing

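Of the values recomputed under alternatives, 281 kept their direction and side of the threshold or, for counts and levels without a test, stayed within 1.5 times or 1 SD. Another 68 were weaker, 6 levels moved by more than their SD, 1 was stronger and 1 changed sign, the strand contrast with medians per pool (0.0263, exact permutation p = 0.938). Windows called higher numbered 4 in the main result, 2 with the grid moved by 1 Mb, 2 in windows of 5 Mb, 0 with equal weights and 2 to 4 without a pool. Windows called lower numbered 8, and 3 with at least 5 pools, 5 with equal weights and 5 to 8 without a pool. Steps numbered 3, and 0 in windows of 1 Mb, 5 in windows of 5 Mb, 0 with equal weights and 1 to 3 without a pool. The causes were not tested. The dense contrast was 2.10 to 2.39 without a pool and the gap edge contrast -1.91 to -1.30, where 5 pools allow no p under 0.0625. With cultures left out they were 2.10 to 2.37 and -1.71 to -1.49, the last with p = 0.0625 in an exact permutation test, and with gaps of 1000 kb the edge contrast was -1.73 over 5 pools (exact permutation p = 0.0625). With neighbours of other pools only, the dense contrast was 2.32. With a replicate block pairing RNA and DNA of a culture, 316 reporters were higher and 292 lower, and DESeq2 1.42.0 gave 315 and 304. With a pseudocount of 5, the 5 lowest reporters lay at -7.34 to -5.98. Leaving out barcodes listed in several pools was added after seeing the data and gave 4 high and 7 low windows and 2 steps. Using barcodes once per position had nothing to change, and edgeR without a culture was not run, as 1 RNA and 1 DNA count per pool leave no residual degrees of freedom.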
